A study of Rattus norvegicus with 12 samples.

Results

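Mixed glial cultures from neonatal rat brain were given a mixture of Th2-type cytokines for 6 hours, and their messenger RNA was set against that of control cultures of the same experiments. The comparison uses 6 of the 12 arrays of the series, which are the 3 arrays whose titles end in Th2 and the 3 whose titles end in control, matched by the experiment code in the title. Every array is an Affymetrix RG-U34A array hybridised with RNA of 1 culture, and each of the 3 separate experiments held 1 Th2, 1 Th1, 1 M/M (monocyte/macrophage) and 1 control culture. The Th2 labels list rat IL-5, rat IL-10, rat G-CSF and porcine TGF-b1 at 10 ng/ml each, and the methods add rat IL-4, which the labels leave out. The Th1 mixture held IL-2, interferon-g and TNF-a as well as G-CSF. The M/M mixture held IL1a together with IL1b, IL-12p40 and TNF-a, with IL-6 named only in the methods. The cultures hold oligodendrocytes, astrocytes and microglia together, so that a signal is not assigned to a cell type. Control cultures received additional medium without cytokines, and the defined medium of all cultures held 2% serum from fetal calves.

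The added cytokines act through different routes. TGF-b binds serine/threonine kinase receptors that phosphorylate Smad proteins, which enter the nucleus and act on genes of the extracellular matrix and on inhibitors of the same pathway. IL-4, IL-10 and G-CSF bind receptors that work through Janus kinases and STAT proteins, IL-4 mainly through Stat6 and IL-10 and G-CSF mainly through Stat3, and IL-5 uses a receptor chain, encoded by Csf2rb, that is shared with other cytokines. In glia these cytokines are known for restraining microglia and for acting on astrocytes and on the matrix they make, and growth signals of many kinds switch on immediate early genes such as Egr1 and Junb within the first hours.

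Of the 8799 probe sets on the array 8740 were compared, after 59 control probe sets were left out. Their signals, calculated by the authors with dChip, had array medians of 58.4, 56.1 and 29.1 with Th2 cytokines in experiments 1, 2 and 3 and of 59.1, 38.4 and 26.9 in control cultures. The Th2 array was therefore brighter than its control array mainly in experiment 2, where the median log2 ratio over all probe sets was 0.40, against −0.02 in experiment 1 and 0.18 in experiment 3. The main counts and list medians are given as deposited and after each array was centred on its own median, while signals and other values are as deposited unless stated. Centring moved the median log2 fold change over all probe sets to −0.03 on the centred scale, against 0.19 as deposited. With whole cultures on the arrays, a gene with fewer cells of a type that makes it and a gene with less RNA per cell cannot be told apart.

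The signals of experiment 3 went against its labels for the 3 cytokine arrays. Over 4397 probe sets with a mean signal of at least 50, the deviations of the Th2 arrays of experiments 1 and 2 from the mean of the cytokine arrays of their experiment correlated at 0.76, whereas the array labelled Th2 in experiment 3 correlated at −0.20 and −0.25 with those Th2 arrays and at 0.44 and 0.37 with the M/M arrays of experiments 1 and 2. The array labelled Th1 in experiment 3 correlated at 0.60 and 0.58 with the Th2 arrays and the array labelled M/M at 0.58 and 0.49 with the Th1 arrays of experiments 1 and 2. Cd74, the invariant chain of MHC class II and a textbook target of interferon-g, had signals of 13.5, 1.54 and 2.90 with Th2 cytokines in experiments 1, 2 and 3, of 874, 219 and 1.40 with Th1, of 29.9, 5.37 and 956 with M/M and of 26.3, 2.30 and 2.50 in control cultures, so that the high array of experiment 3 was the one labelled M/M. Il1b, for the inflammatory cytokine IL-1b, had 97.6, 48.3 and 2145 with Th2 cytokines, 1347, 753 and 110.3 with Th1, 2544, 1145 and 791 with M/M and 98.5, 26.9 and 53.4 in control cultures, and here the array labelled Th2 was the highest of experiment 3. All arrays are called here by their labels and none was regrouped. The main counts, several list medians and many fold changes are given with and without experiment 3. Other values hold all 3 experiments, and for most genes the signals of each experiment are given.

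**Figure D1:**
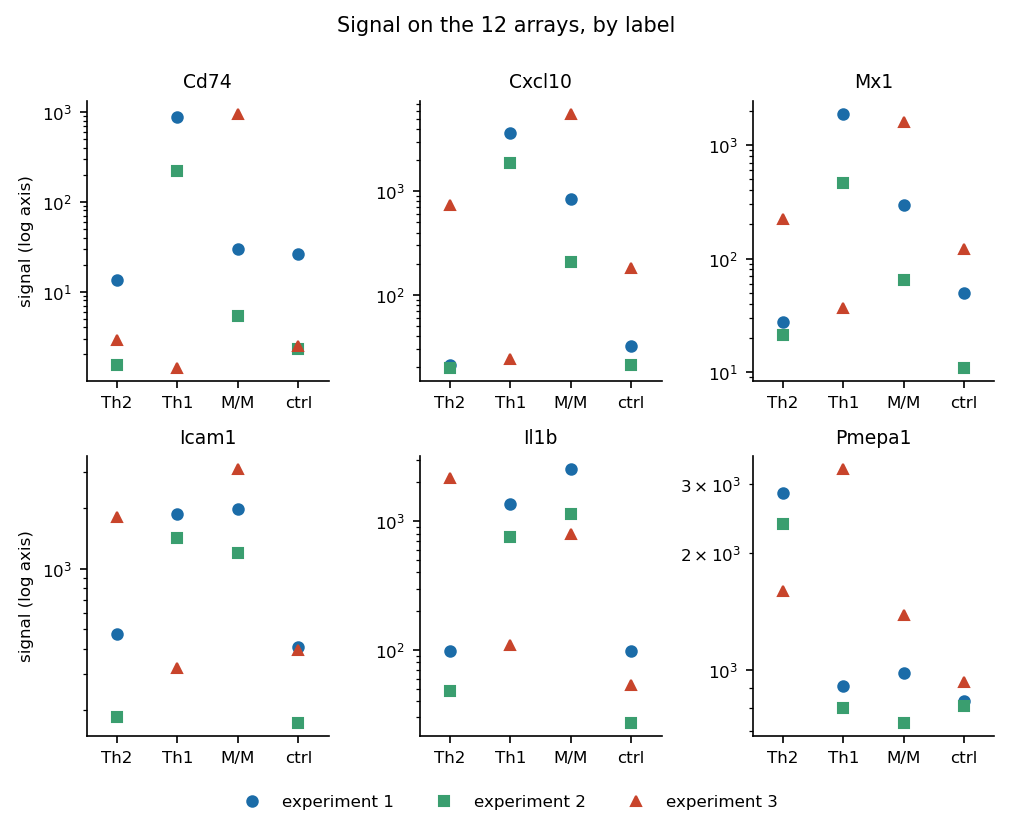
Signals of Cd74, Cxcl10, Mx1, Icam1, Il1b and Pmepa1 on a log axis in the 12 arrays, grouped by label as Th2, Th1, M/M and control, with a marker for each experiment. In experiments 1 and 2 Cd74 is at 1.54 to 13.5 with Th2 and 219 to 874 with Th1, while in experiment 3 it is at 1.40 in the array labelled Th1 and at 955.5 in the array labelled M/M.

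The study asked which early expression changes the Th2 mixture causes in mixed glia. As deposited, 1 of 8740 probe sets (0.0114%) rose with Th2 cytokines and 0 (0%) fell at an adjusted p under 0.05 by limma with experiment as a block, while 530 were higher and 60 lower at an unadjusted p under 0.05. With centred arrays 0 rose (0%) and 0 fell (0%), and 375 were higher and 307 lower at an unadjusted p under 0.05. When the fit held only the 6 Th2 and control arrays, 13 probe sets (0.149%) rose and 0 (0%) fell, among them those of Pmepa1, Ccl2, Junb, Tnfrsf11b, Olr1, Ifrd1, Fcgr2b, Errfi1 and Sod2. By the screening criteria of the methods, which ask for a change over 2-fold and an unadjusted p under 0.2 in an analysis of variance, 325 probe sets (3.72%) were higher and 60 (0.686%) lower as deposited, against 228 (2.61%) and 122 (1.4%) with centred arrays. Higher in 3 of 3 experiments as deposited were 2181 probe sets (25%), and 565 (6.46%) were lower in 3 of 3, whereas on the centred scale these were 1303 (14.9%) and 1369 (15.7%). Without experiment 3 limma called 0 probe sets, with 413 higher and 139 lower at an unadjusted p under 0.05, and with centred arrays it also called 0, with the balance turned round at 362 higher and 580 lower.

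The probe set that rose, M24067_at, carries no gene name in the annotation used here. Its signal was 872, 242 and 1234 with Th2 cytokines in experiments 1, 2 and 3, against 128, 74.2 and 181 in control cultures. In every experiment the Th2 culture was higher, by 3.26 to 6.82 times, and every Th2 array lay above every control array. On the log2 scale the difference was 2.41 (SE 0.30) with an adjusted p = 0.0196 by limma. With centred arrays it was 2.20 (adjusted p = 0.256), and without experiment 3 2.24 (adjusted p = 0.430). The call was also lost without experiment 1 (2.24, adjusted p = 0.188), without the replicate block and when a control array, or the Th2 array of experiment 1 or 3, was left out (adjusted p = 0.144 to 0.183). The same probe set had 539, 227 and 318 in the Th1 cultures and 749.7, 371 and 773 in the M/M cultures, so that the Th2 signals were not set apart from those of the other mixtures.

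Pmepa1 set the Th2 cultures apart from all other cultures in experiments 1 and 2. It encodes a membrane protein that is itself switched on by TGF-b and holds back Smad signalling. Its signal was 2848, 2378 and 1595 with Th2 cytokines in experiments 1, 2 and 3, 912.8, 799 and 3286 with Th1, 984, 730.2 and 1389 with M/M and 832, 810.3 and 932 in control cultures. Th2 signals exceeded control signals in every experiment and the groups did not overlap, but in experiment 3 the array labelled Th1 was higher than the one labelled Th2. Over 3 experiments the log2 fold change against control was 1.37 (SE 0.39, adjusted p = 0.631, limma), and 1.16 with centred arrays. Without experiment 3 it was 1.66 (SE 0.13, adjusted p = 0.110), and in the fit of the 6 Th2 and control arrays the adjusted p was 0.0172.

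The promoter of Pmepa1 is shown because the gene is a textbook target of Smad proteins, which bind the short motif CAGAC. The sequence is from RefSeq (GRCr8), 250 bases before to 50 bases after the start of the gene, on the minus strand of chr3:182478600-182478899, and capitals mark CAGAC and TGACGTCA, the cyclic AMP response element, on either strand.
Pmepa1: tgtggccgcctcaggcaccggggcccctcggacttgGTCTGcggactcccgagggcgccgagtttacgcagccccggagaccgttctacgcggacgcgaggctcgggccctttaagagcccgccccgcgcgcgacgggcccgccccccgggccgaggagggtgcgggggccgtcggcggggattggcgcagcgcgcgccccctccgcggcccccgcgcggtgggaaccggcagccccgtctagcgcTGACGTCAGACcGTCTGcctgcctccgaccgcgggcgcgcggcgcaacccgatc
It holds 3 matches of CAGAC, of which 1 overlaps the TGACGTCA match. Of 27457 rat promoters of this length 13720 hold CAGAC and 1.91% hold TGACGTCA, and a match is only a description of the letters.

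Among named genes with a mean signal of at least 50 that were higher in 3 of 3 experiments, the 12 with the smallest unadjusted p as deposited were Ifrd1, Tnfrsf11b, Olr1, Junb, Ccl2, Fcgr2b, Egr2, Egr1, Errfi1, Zfp697, Mvp and Hbegf. Their log2 fold changes were 1.14 to 2.60 as deposited, 0.93 to 2.39 with centred arrays and 1.13 to 2.85 without experiment 3, and their adjusted p values were 0.228 to 0.518 as deposited by limma, so that none passed the test. The selection with centred arrays held 8 of these genes and added Ets1, Dusp6, Zfp36 and Fgr. Since the members were taken for being higher, their shared direction is a description.

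Egr1, Egr2 and Junb are immediate early genes, which respond to growth and stress signals without new protein synthesis. Egr1, a zinc finger factor, had 437, 215 and 263 with Th2 cytokines against 171, 100 and 126 in control cultures. The Th2 signal was 2.09 to 2.55 times that of control, in a narrow range, and the groups did not overlap (log2 fold change 1.17, SE 0.24, adjusted p = 0.255, limma, and 0.96 with centred arrays). Of its 3 other probe sets, the brightest had a log2 fold change of 0.92, another 1.14 and the last 0.07. Egr2, a relative that in mouse macrophages is known to answer to IL-4, had 239.5, 42.6 and 135 with Th2 cytokines against 36.5, 5.90 and 57.2 in control cultures. Its log2 fold change was 2.27 (SE 0.46), and it was larger without experiment 3, at 2.78, while the Th2 signal of experiment 2 lay within the control range.

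Junb, a subunit of the AP-1 factor, was higher in both of its probe sets. The one selected had 205, 135 and 182 with Th2 cytokines against 98.2, 54.6 and 44.2 in control cultures, and the brighter one 431, 159.6 and 670.4 against 168, 43.0 and 127. The log2 fold changes were 1.47 (SE 0.29) and 1.88 (SE 0.37), and 1.18 and 1.62 without experiment 3, and the groups overlapped only in the brighter probe set. Ifrd1, a transcriptional co-regulator, had 625, 229 and 515 with Th2 cytokines against 248, 108 and 118 in control cultures, a log2 fold change of 1.52 (SE 0.27) and of 1.21 without experiment 3. In experiment 2 its Th2 signal was below the control signal of experiment 1, so the groups overlapped although each pair pointed the same way. Ets1, a factor of the ETS family, had 126, 104 and 129.8 with Th2 cytokines against 74.5, 29.4 and 45.3 in control cultures, with no overlap. Zfp36, for tristetraprolin, a protein that speeds the decay of cytokine messenger RNAs, had 273, 101 and 297 against 130.3, 33.0 and 162, while another probe set of it had a log2 fold change of −0.08. Zfp697 had 136, 83.8 and 272 with Th2 cytokines against 83.9, 28.3 and 78.4 in control cultures and the groups overlapped by 1 array.

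The promoters of Egr1, Egr2 and Junb are shown to set these immediate early genes side by side. They are from RefSeq (GRCr8) in the same window, on the plus strand of chr18:26736828-26737127 for Egr1, the minus strand of chr20:21054392-21054691 for Egr2 and the plus strand of chr19:40080876-40081175 for Junb. Capitals mark the CArG box, the site of serum response factor.
Egr1: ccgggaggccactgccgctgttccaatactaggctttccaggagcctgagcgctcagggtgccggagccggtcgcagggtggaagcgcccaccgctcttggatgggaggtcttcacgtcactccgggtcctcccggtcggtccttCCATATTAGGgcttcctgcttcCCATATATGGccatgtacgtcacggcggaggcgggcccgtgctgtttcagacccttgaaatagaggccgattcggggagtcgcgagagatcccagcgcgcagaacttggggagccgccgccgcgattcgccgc
Egr2: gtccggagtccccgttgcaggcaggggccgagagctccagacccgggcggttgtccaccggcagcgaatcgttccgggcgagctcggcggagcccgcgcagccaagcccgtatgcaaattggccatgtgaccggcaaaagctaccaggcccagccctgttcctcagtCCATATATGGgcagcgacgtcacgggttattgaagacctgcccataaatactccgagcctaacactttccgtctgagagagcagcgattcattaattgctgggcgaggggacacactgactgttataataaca
Junb: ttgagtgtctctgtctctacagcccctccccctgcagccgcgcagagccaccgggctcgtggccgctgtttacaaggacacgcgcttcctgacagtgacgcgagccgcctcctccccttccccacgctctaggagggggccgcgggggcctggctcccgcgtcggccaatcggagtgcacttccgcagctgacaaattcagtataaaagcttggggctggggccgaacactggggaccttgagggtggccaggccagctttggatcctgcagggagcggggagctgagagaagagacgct
Egr1 holds 2 matches and Egr2 holds 1, while no match lies in the Junb window. The CArG box was searched on both strands and is found in 1.64% of the 27457 promoters of this length. Promoters of 9 of the 12 genes were found in the table, and the 2 with a CArG box were those of Egr1 and Egr2. Among 11 of the 12 lower genes named further on, 1 promoter, of Vamp1, holds it.

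Hbegf, Errfi1 and Dusp6 belong to signalling through the epidermal growth factor receptor and the kinases after it. Hbegf, for a ligand of that receptor, had 369, 122 and 502 with Th2 cytokines against 164, 49.6 and 259.8 in control cultures. Errfi1, which encodes an inhibitor of the same receptor, had 447, 119 and 414 against 169, 25.1 and 195, and Dusp6, for a phosphatase that switches off ERK kinases, had 411, 242 and 215 against 227, 81.4 and 100. In each of the 3 genes the Th2 signal was higher in every experiment while the groups overlapped across experiments. Their log2 fold changes were 1.14 (SE 0.28), 1.58 (SE 0.35) and 1.18 (SE 0.30) for Hbegf, Errfi1 and Dusp6, and 1.24, 1.83 and 1.22 without experiment 3.

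Tnfrsf11b, Ccl2 and Il6 encode secreted proteins. Tnfrsf11b, for osteoprotegerin, the decoy receptor of the osteoclast factor RANKL, had 257, 44.1 and 157 with Th2 cytokines against 34.7, 6.30 and 36.5 in control cultures. All Th2 signals exceeded all control signals, by 4.30 to 7.41 times within an experiment (log2 fold change 2.60, SE 0.47, adjusted p = 0.228, limma, and 2.85 without experiment 3). Ccl2, a chemokine that draws monocytes, had 3356, 1094 and 5748 with Th2 cytokines against 898, 583 and 986 in control cultures, and the groups did not overlap. Its log2 fold change was 1.78 (SE 0.35), with 1.41 without experiment 3, and a second probe set gave 1.17. Il6, for the cytokine IL-6, had 123.0, 9.82 and 104 with Th2 cytokines against 6.45, 9.87 and 2.00 in control cultures. Its high signals were those of experiments 1 and 3, in experiment 2 the signals were nearly equal, and the log2 fold change was 3.32 (SE 0.79, adjusted p = 0.514, limma), or 2.12 without experiment 3.

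Olr1, Fcgr2b and Fgr of the selected genes, and Arg1 of the IL-4 list, are known from macrophages. Olr1, the LOX-1 receptor for oxidised lipoprotein, had 227, 42.2 and 60.7 with Th2 cytokines against 30.0, 7.88 and 13.9 in control cultures. The Th2 signals were all above the control signals, with a log2 fold change of 2.49 (SE 0.47) and of 2.67 without experiment 3, while of its other probe sets 1 had 1.51 and a dim one 0.02. Fcgr2b, the inhibitory receptor for IgG, had 644, 263 and 523 with Th2 cytokines against 372, 64.7 and 143 in control cultures, a log2 fold change of 1.56 (SE 0.31), and the control signal of experiment 1 exceeded the Th2 signal of experiment 2. Fgr, a Src-family kinase of myeloid cells, had 171, 125 and 67.2 against 112, 41.6 and 39.5. Arg1, for arginase and in mouse macrophages a hallmark of the response to IL-4, had 133, 20.1 and 30.2 with Th2 cytokines against 19.5, 8.01 and 2.70 in control cultures. Every Th2 signal of Arg1 exceeded every control signal, with a log2 fold change of 2.53 (SE 0.66), an adjusted p = 0.562 by limma and a log2 fold change of 2.05 without experiment 3. Mvp, the main protein of vault particles, had 241, 163 and 151 with Th2 cytokines against 126, 59.4 and 67.6 in control cultures, and the groups did not overlap.

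The promoter of Olr1, one of the largest differences of the set, is shown for its AP-1 motif TGANTCA, which Junb-containing dimers can bind. It is from RefSeq (GRCr8) in the same window, on the minus strand of chr4:164634498-164634797, with the motif in capitals.
Olr1: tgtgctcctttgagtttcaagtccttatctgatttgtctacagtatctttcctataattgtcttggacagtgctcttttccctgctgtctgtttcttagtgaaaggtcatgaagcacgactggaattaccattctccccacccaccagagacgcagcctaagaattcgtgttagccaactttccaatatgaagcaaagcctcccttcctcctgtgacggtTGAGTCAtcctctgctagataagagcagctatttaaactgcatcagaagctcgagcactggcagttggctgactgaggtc
The motif was searched on both strands and 7.33% of the 27457 promoters hold it. Among the 9 promoters found for the 12 higher genes Olr1 alone holds it.

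**Figure D2:**
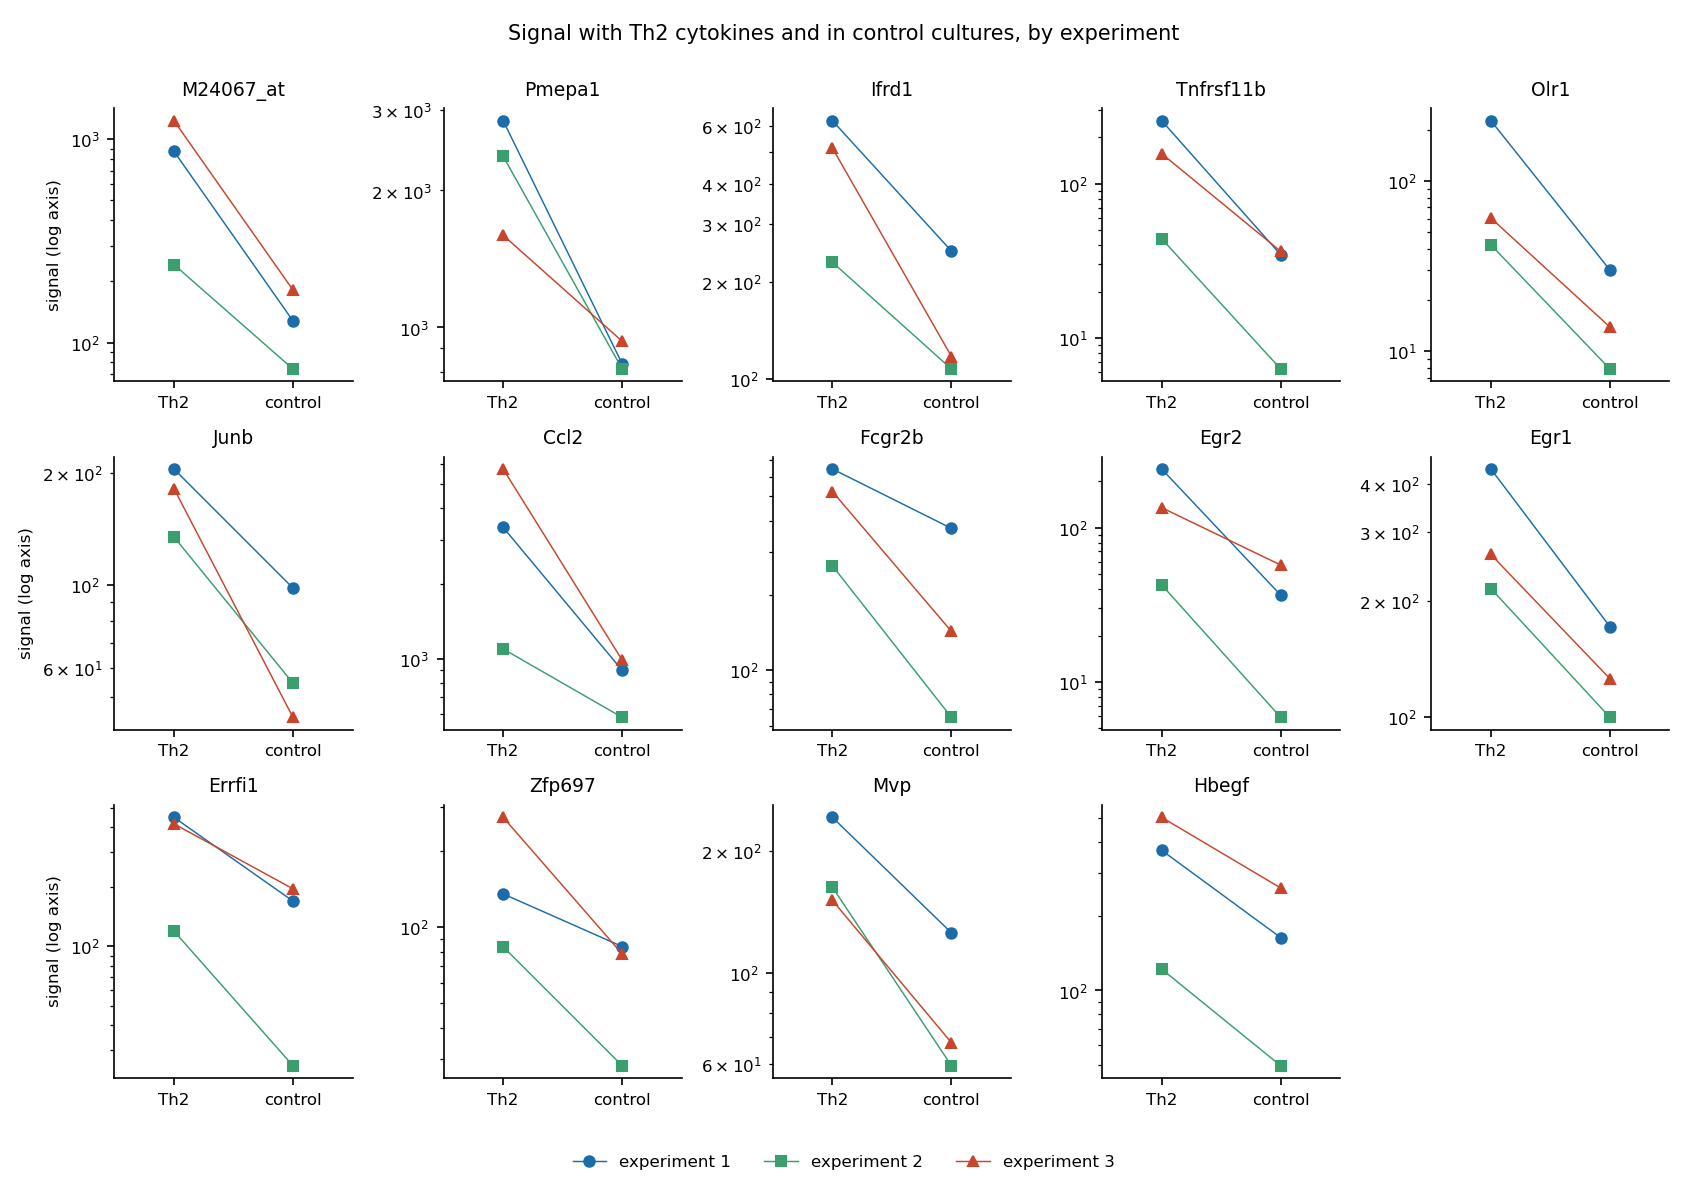
Signals of the unnamed probe set M24067_at, Pmepa1 and the 12 selected higher genes on log axes, with Th2 left of control and a line for each of the 3 experiments. Every line falls towards the control side, and the 6 points of Pmepa1 do not overlap, at 1595 to 2848 with Th2 and 810.3 to 932 in control cultures.

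None of the 12 higher genes passed the test between Th2 and another mixture. Their selection included experiment 3, whose array labelled Th2 correlated with the M/M arrays of experiments 1 and 2. The rule could therefore pass over genes higher with Th2 alone, and the result does not extend to all genes higher with Th2. Without experiment 3, the log2 differences of the 12 genes ran from −0.996 to 1.28 between Th2 and Th1 cytokines and from −1.36 to 1.28 between Th2 and M/M cytokines, with adjusted p values of at least 0.640 and 0.388 by limma. Ccl2 had the Th2 signals given above, 4659.6 and 3135 in Th1 cultures and 5496 and 4393 in M/M cultures in experiments 1 and 2, so that Th2 was the lowest of the mixtures. Tnfrsf11b had 52.1 and 36.6 in Th1 cultures and 196 and 62.3 in M/M cultures in these experiments, so that Th2 was highest in experiment 1 and M/M in experiment 2. Pmepa1 was apart from these, as described with the other mixtures further on.

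Among named genes that were lower in 3 of 3 experiments, the 12 with the smallest unadjusted p were Dcn, Igfbp2, Vamp1, Cyp51, Fdps, Dad1, Sparc, Tpm2, Hacl1, Sord, St3gal5 and Rbl2. Their log2 fold changes were −1.18 to −0.50 as deposited, mostly smaller in size than those of the higher genes, and their adjusted p values were 0.642 to 0.717 by limma. With centred arrays they were −1.40 to −0.71, and Pou3f3, Ccnd2 and Gsta1 were added in place of 3 of them. Within 1 gene the probe sets differed, and of 18 other probe sets of these 12 genes 10 were lower on average.

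Dcn, Igfbp2 and Sparc encode proteins of the extracellular space. Dcn, for decorin, a small proteoglycan that binds TGF-b, had 111, 64.9 and 55.3 with Th2 cytokines against 169, 159.6 and 97.2 in control cultures. The log2 fold change was −0.90 (SE 0.27) and −0.95 without experiment 3, but its 3 other probe sets had −0.30, −0.02 and 0.26. Igfbp2, a binding protein of insulin-like growth factors, had 990.2, 547 and 629.9 with Th2 cytokines against 1722, 978 and 815 in control cultures, with a log2 fold change of −0.67 (SE 0.22), and its other probe sets had −0.35 and −0.26. The Th2 signal of Igfbp2 was lower in each pair while the groups overlapped. Sparc, a matrix protein made by astrocytes, had 1258, 2462 and 145 against 2824, 3328 and 220.2, a log2 fold change of −0.73 (SE 0.27), while its other probe sets had −0.10, −0.08 and 0.17. For Dcn and Sparc 3 of 4 probe sets had negative log2 fold changes, and those of the other probe sets were smaller in size than that of the selected one.

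Fdps and Cyp51 encode enzymes of cholesterol synthesis. Fdps, which makes farnesyl diphosphate in the cholesterol pathway, had 546, 692 and 192 with Th2 cytokines against 848, 872 and 292 in control cultures, a log2 fold change of −0.52 (SE 0.19) and of −0.74 with centred arrays. Its brightest probe set had 1565, 2528 and 498 with Th2 cytokines against 1820.4, 3096 and 679 in control cultures, a log2 fold change of −0.32, and the remaining one had −0.08. Cyp51, for the sterol demethylase, had 388, 539.8 and 113 against 446, 883 and 355, with a log2 fold change of −0.86 (SE 0.31) that was −0.46 without experiment 3, and its brightest probe set had 0.16. Each pair of Fdps signals was lower with Th2 in the probe sets with values given, whereas the direction of Cyp51 depended on the probe set.

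The remaining lower genes had unlike roles. Vamp1, for a protein of vesicle fusion, had 127, 229 and 31.1 with Th2 cytokines against 153, 563 and 81.0 in control cultures, while its dimmer probe set had a log2 fold change of 0.58. Tpm2, for a tropomyosin, had 103, 40.7 and 15.8 against 139, 61.7 and 53.6. Hacl1, an enzyme of peroxisomal fatty acid breakdown, had 104, 86.3 and 3.70 against 138, 115 and 24.4, and its log2 fold change of −1.18 was −0.41 without experiment 3. Sord, for sorbitol dehydrogenase, likewise had −0.81 with and −0.52 without that experiment. Dad1, a subunit of the enzyme that attaches sugar chains to new proteins, St3gal5, which makes the ganglioside GM3, and Rbl2, a relative of the retinoblastoma protein, had −0.52 (SE 0.19), −0.62 (SE 0.26) and −0.50 (SE 0.21). In all 3 genes the groups overlapped and experiment 3 was dimmer in Th2 and control arrays alike, and other probe sets of Dad1 had 0.01 and 0.26.

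**Figure D3:**
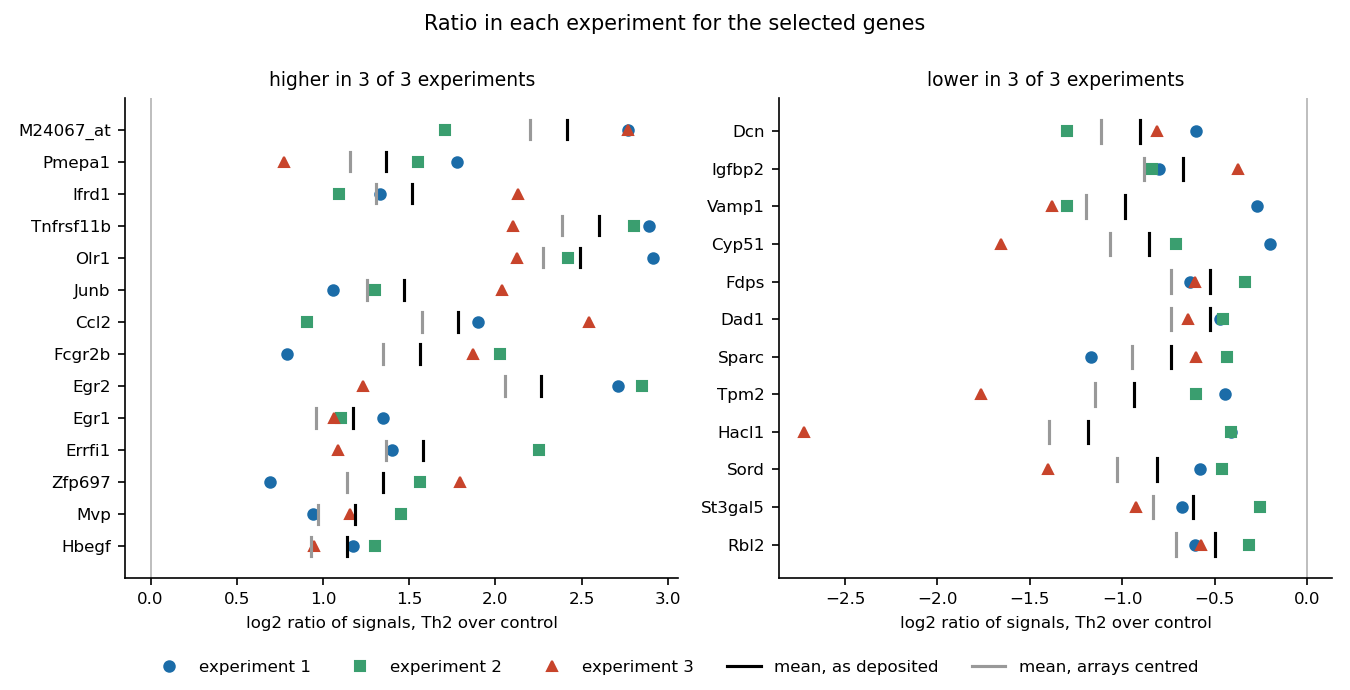
Log2 ratio of Th2 over control within each of the 3 experiments for M24067_at, Pmepa1, the 12 higher and the 12 lower genes, with a black tick for the mean as deposited and a grey tick for the mean with centred arrays. The ratios of the 12 higher genes lie between 0.69 and 2.91 and those of the 12 lower genes between −2.72 and −0.20.

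The pathways of the added cytokines were described with gene lists, each gene by its brightest probe set. No member of any list passed the test by limma, so that counts of direction and medians are given beside those of all 4736 named genes, of which 26.8% were higher and 6.59% lower in 3 of 3 experiments as deposited, with a median log2 fold change of 0.19. On the centred scale 15.2% were higher and 16.6% lower, with a median of −0.03, or −0.08 without experiment 3.

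Of 48 TGF-b response genes 36 were measured, 18 of them higher and 3 lower in 3 of 3 experiments, with a median log2 fold change of 0.36. With centred arrays 9 were higher and 7 lower and the median was 0.15, against 0.09 without experiment 3. Besides Pmepa1 and Junb, the members more than 2-fold higher included Klf10, a transcriptional repressor first described as TGF-b inducible, Ltbp1, which tethers latent TGF-b to the matrix, Fst, for the activin inhibitor follistatin, and Lox, for the enzyme that cross-links collagen. Klf10 had 226, 83.3 and 282 with Th2 cytokines against 186, 14.5 and 174 in control cultures, and its large ratio was that of experiment 2. Ltbp1 had 80.8, 50.2 and 150.1 against 39.4, 17.0 and 89.3, and Lox had 638, 76.4 and 252 against 192, 42.2 and 184. These groups overlapped while each pair was higher with Th2. The other 3 probe sets of Lox had log2 fold changes of 1.45, 0.58 and 0.31, next to 1.01 for the brightest. Tgfb1, for the cytokine itself, had 282, 306 and 191 with Th2 cytokines against 210.1, 253 and 70.5 in control cultures.

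Receptors and signalling proteins of the added cytokines were described in the same way. Of 36 listed 23 were measured, with 13 (56.5%) higher and 0 lower in 3 of 3 experiments as deposited, 10 higher and 1 lower with centred arrays, and a median of 0.45, or 0.23 with centred arrays and 0.17 with centred arrays without experiment 3. Il4r, the IL-4 receptor chain, had 121, 119.6 and 135 with Th2 cytokines against 116, 60.2 and 66.5 in control cultures. Csf2rb had 248, 257 and 78.7 against 189, 86.7 and 54.7, and Stat3 had 62.8, 82.5 and 62.6 against 58.1, 30.6 and 15.0. The control signal of experiment 1 was near the Th2 signal for Il4r and Stat3, and the difference lay in experiments 2 and 3. The Smad genes were close to 0 in log2 fold change, at 0.26 for Smad2, 0.22 for Smad3, 0.09 for Smad4 and −0.04 for the dim inhibitor gene Smad7.

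Response genes of the cytokines that work through STAT proteins were few on the array. Of 25 IL-4 response genes 12 were measured, of which 6 were higher and 0 lower in 3 of 3 experiments as deposited and 5 higher and 1 lower with centred arrays, with a median of 0.41, or 0.19 with centred arrays and 0.20 with centred arrays without experiment 3. Arg1, Egr2, Vcam1 and Cd36 were more than 2-fold higher, and Vcam1, for an adhesion molecule, had 135, 55.5 and 1108 with Th2 cytokines against 117, 14.5 and 71.6 in control cultures, so that its high value was that of experiment 3. Of 28 genes that respond to IL-10 or G-CSF 17 were measured, of which 9 were higher and 0 lower as deposited and 8 and 0 with centred arrays, with a median of 0.49. Its centred median was 0.28 with and −0.06 without experiment 3. Socs3, the feedback inhibitor of Stat3, was dim at 15.4, 8.17 and 40.7 with Th2 cytokines against 6.92, 3.36 and 12.0 in control cultures. Cebpb, for a transcription factor of the acute phase response, had 265, 166 and 616 against 191, 52.9 and 146, and Cd14, for the lipopolysaccharide co-receptor, had 941, 648 and 1991 against 773, 365 and 366. Among the Th2 and control arrays both were highest in the array labelled Th2 of experiment 3.

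Of 36 immediate early genes 30 were measured, of which 16 (53.3%) were higher and 0 lower in 3 of 3 experiments, with a median of 0.36. With centred arrays 9 were higher and 2 lower, and the median of 0.15 was 0.02 without experiment 3. Next to Egr1, Egr2 and Junb, the AP-1 genes Fos and Jun had log2 fold changes of 0.44 and 0.19, and Nr4a1, for an orphan nuclear receptor, had −0.07.

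Inflammatory genes were high with Th2 mainly in experiment 3. Of 34 listed 28 were measured, of which 16 were more than 2-fold higher over 3 experiments and 6 without experiment 3. Over all 4736 named genes these counts were 297 and 357. The median log2 ratio of the list was −0.02, 0.67 and 2.43 in experiments 1, 2 and 3, and the median of the fold changes was 1.31 as deposited, 1.10 with centred arrays and 0.14 with centred arrays without experiment 3. Ccl20, a chemokine, had 88.0, 64.9 and 2345 with Th2 cytokines against 129, 71.3 and 66.7 in control cultures, and Icam1, for an adhesion molecule, had 471, 184 and 1811 against 410.1, 171 and 397. In experiments 1 and 2 the Th2 signals of both genes were close to those of control cultures. Sod2, for mitochondrial superoxide dismutase, was higher in each pair with 713, 465 and 461 with Th2 cytokines against 326, 229 and 98.8 in control cultures. Of 16 measured interferon-inducible genes 0 were higher and 0 lower in 3 of 3 experiments, on either scale, and of 16 antigen presentation genes 2 were higher and 1 lower as deposited and 0 higher and 1 lower with centred arrays.

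**Figure D4:**
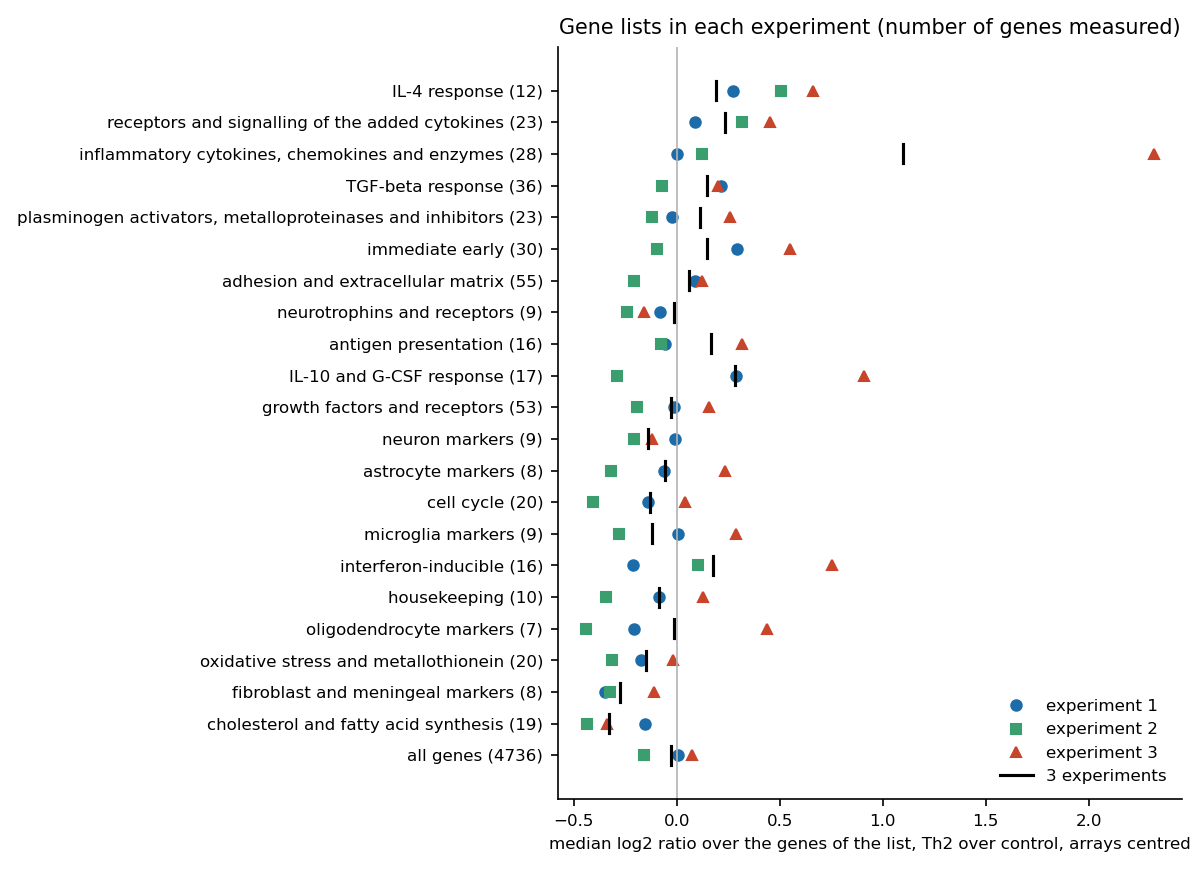
Median log2 ratio of Th2 over control with centred arrays, for gene lists in each of the 3 experiments. The lists of oligodendrocyte precursor, endothelium and T and B cell markers are not drawn. A black tick is the median over genes of their mean over the experiments, which can lie outside the 3 medians. The inflammatory list is at 0.00 and 0.12 in experiments 1 and 2 and at 2.32 in experiment 3, and the cholesterol list is at −0.15, −0.44 and −0.34.

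Genes of cholesterol and fatty acid synthesis, of which none passed the test, had a median below that of all genes. Of 30 listed 19 were measured, of which 2 were higher and 7 (36.8%) lower in 3 of 3 experiments as deposited and 1 higher and 11 (57.9%) lower with centred arrays. The median was −0.12 as deposited, −0.33 with centred arrays and −0.37 with centred arrays without experiment 3. Fdft1, for squalene synthase, had 253, 361 and 126 with Th2 cytokines against 383, 511.9 and 182 in control cultures, and Mvk, for mevalonate kinase, had 93.9, 161 and 28.5 against 120.0, 207 and 56.4. Acly, for the enzyme that supplies acetyl-CoA, had 1705, 1885 and 1424 against 2164, 2590.2 and 1714, and Dhcr7, which closes the pathway, had 359, 370.0 and 86.3 against 451, 451 and 198. Each of these pairs was lower with Th2, by less than 2-fold in experiments 1 and 2. Acsl1, which activates fatty acids, was the opposite with 204, 129 and 131 with Th2 cytokines against 132, 39.9 and 75.1 in control cultures.

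Matrix, protease and growth factor lists had members in both directions. Of 64 adhesion and matrix genes 55 were measured, with 19 higher and 7 lower in 3 of 3 experiments as deposited, 8 higher and 9 lower with centred arrays, and a centred median of 0.06. Of 26 protease and inhibitor genes 23 were measured, with 8 higher and 2 lower as deposited and 3 higher and 3 lower with centred arrays, and the largest ratios of Mmp13, Mmp3 and Mmp9 were those of experiment 3. Mmp3, for stromelysin, had 22.4, 19.1 and 596 with Th2 cytokines against 11.2, 14.3 and 11.7 in control cultures. Timp1, for an inhibitor of these proteases, had 1234, 513.1 and 1599 against 967, 395 and 716, and Plaur, the urokinase receptor, had 103, 91.1 and 180.2 against 59.7, 44.9 and 114. Timp1 and Plaur were higher in each pair. Of 60 growth factor genes 53 were measured, with 8 higher and 5 lower as deposited and 7 higher and 13 lower with centred arrays. Bmp2, for a bone morphogenetic protein, had 424, 13.0 and 4.90 with Th2 cytokines against 9.99, 5.43 and 12.5 in control cultures, so that its high value was 1 array. Vgf, for a secreted neuropeptide precursor, had 602, 237 and 872 against 235, 223 and 133, with a log2 fold change of 1.38 (SE 0.39) and of 0.72 without experiment 3.

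A list of 48 accessions published for the Th2 mixture was looked up as well, and since it was chosen on these arrays its direction is not independent evidence. On the array 46 of them matched 54 probe sets. Only 10 had a mean signal of at least 50 and 38 were under 20, where signals are close to the bottom of the scale. By limma 0 were called (lowest adjusted p 0.384), at a stricter threshold than the screening criteria by which the list was published. By the screening criteria as run here, 6 were higher and 3 lower. As deposited, 13 were higher and 9 lower in 3 of 3 experiments, against 25% and 6.46% of all probe sets. Bdnf, for brain-derived neurotrophic factor, had 10.2, 7.67 and 1.80 with Th2 cytokines against 2.43, 8.78 and 0.90 in control cultures in its listed probe set. Ntf3, for neurotrophin-3, had 5.88, 3.56 and 1.80 against 8.04, 5.27 and 9.70. For Bdnf the Th2 and control signals overlapped at this low level, and for Ntf3 the large ratio was that of experiment 3. By quantitative PCR the study reported a rise of both genes with the Th2 mixture, which for Ntf3 is opposite to its array result. The dim array signals alone therefore do not settle the direction of either gene. Brighter was Fgfr1, a receptor of fibroblast growth factors, with 175, 199 and 180.2 with Th2 cytokines against 147, 103 and 95.5 in control cultures and no overlap.

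The glial markers were present in Th2 and control cultures, except that no probe set was named for the astrocyte gene Gfap. Oligodendrocyte markers were bright, with Mbp, for myelin basic protein, at 3337, 5984 and 2680.3 with Th2 cytokines against 3643, 5558 and 1831 in control cultures, and their summed signal was 6462 to 16048 with Th2 cytokines and 4490 to 15102 in control cultures. Of 7 measured 0 were higher and 0 lower in 3 of 3 experiments on either scale. Oligodendrocyte precursor markers, 3 measured of 5, had 0 higher and 1 lower on either scale, with a centred median of −0.36. Their sums were lower in each pair, at 1170, 1639 and 578.5 with Th2 cytokines against 1330, 1978 and 604 in control cultures. Whether this came from fewer such cells was not tested. Astrocyte markers, 8 measured of 10, had 3 higher and 0 lower as deposited and 2 higher and 1 lower with centred arrays, with sums of 8424 to 12153 with Th2 cytokines and 7496 to 13197 in control cultures, and Slc1a3, the glutamate transporter, was at 1383, 829 and 1503 against 1310.1, 652 and 1467. Microglia markers, 9 measured of 14, had 2 higher and 0 lower as deposited and 1 higher and 0 lower with centred arrays, with sums of 5679 to 9024 with Th2 cytokines and 4243 to 9155 in control cultures. Neuron, endothelium and T and B cell markers had lower signals, with sums of 814 to 1200, 136 to 173 and 77.7 to 146 with Th2 cytokines and of 686 to 1188, 126 to 249.8 and 76.9 to 163 in control cultures, and the part of these cells in any result was not tested. By immunofluorescence the study reported no neurons or endothelial cells in its cultures. Fibroblast and meningeal markers, 8 measured of 8 with Dcn among them, had 2 higher and 3 lower in 3 of 3 experiments as deposited. With centred arrays 1 was higher and 5 lower, with a median of −0.27. Of all named genes 6.59% were lower as deposited and 16.6% with centred arrays. Fibroblast markers summed to 1313 to 5165 with Th2 cytokines and 1017 to 6027 in control cultures, low in experiment 2 in both groups.

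Whether a gene answered differently to Th2 than to Th1 or M/M cytokines was tested by the difference between the mixtures, which does not use the control arrays. With all 12 arrays limma called 0 probe sets for Th2 against Th1 and 0 for Th2 against M/M cytokines. At an unadjusted p under 0.05 there were 162 and 343, each less than a share of 0.05 of all probe sets. Without experiment 1 or 2, 0 were called as well. Without experiment 3, in which the labels and signals disagree, 1 probe set (0.0114%) was higher and 40 (0.458%) lower with Th2 than with Th1 cytokines, and 2 (0.0229%) were higher and 21 (0.24%) lower with Th2 than with M/M cytokines. With centred arrays and without experiment 3 these were 8 (0.0915%) and 82 (0.938%), and 7 (0.0801%) and 45 (0.515%). These fits rest on 2 experiments. Experiment 3 was left out because of its differences between the cytokine arrays, which these tests also measure. The calls and their adjusted p values are therefore a description and not independent of that choice.

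As deposited, the probe set called higher with Th2 than with both other mixtures was that of Pmepa1. Without experiment 3 its log2 difference was 1.61 to Th1 (SE 0.13, adjusted p = 0.0123, limma) and 1.62 to M/M cytokines (adjusted p = 0.0158, limma), while the signals with Th1 and M/M cytokines in experiments 1 and 2 were near those of the control cultures. Arl11, for a small GTPase of the ARF-like family, had 819, 699 and 125 with Th2 cytokines, 331, 337 and 365 with Th1, 269.6, 263 and 193 with M/M and 750.0, 555 and 269.7 in control cultures. It was 1.51 higher on the log2 scale with Th2 than with M/M cytokines (adjusted p = 0.0388, limma) and 1.18 higher than with Th1 (adjusted p = 0.0622). In experiments 1 and 2 its Th2 signal stayed near that of control while the other mixtures were lower.

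Of the 5 named genes called higher only with centred arrays and without experiment 3, Apobec1, Vsir and Ifngr1 had Th2 signals nearer to control than to the other mixtures in experiments 1 and 2, while Rgs1 and Dock8 had Th2 signals above control. Apobec1, for a cytidine deaminase that edits RNA, had 728, 350.1 and 102 with Th2 cytokines, 131, 105 and 366 with Th1, 133, 118 and 80.2 with M/M and 814, 381 and 266 in control cultures. Vsir, for an immune checkpoint protein of myeloid cells, had 340.0, 219 and 69.4 with Th2 cytokines, 100, 72.3 and 215 with Th1, 98.3, 80.5 and 85.0 with M/M and 349, 173 and 148 in control cultures. With centred arrays and without experiment 3, Apobec1 was 2.15 and 2.07 higher with Th2 than with Th1 and M/M cytokines on the log2 scale, Vsir 1.73 and 1.67, and Ifngr1, for the interferon-g receptor, 1.31 and 1.17, all called by limma (adjusted p = 0.00305 to 0.0312). As deposited, the adjusted p values of Apobec1 were 0.0581 and 0.102, those of Vsir 0.0620 and 0.105 and those of Ifngr1 0.259 and 0.481. Rgs1, for a regulator of G protein signalling, had 368, 95.5 and 43.9 with Th2 cytokines, 79.8, 33.2 and 33.7 with Th1, 134, 55.0 and 14.3 with M/M and 137, 19.0 and 26.3 in control cultures, and Dock8, for an exchange factor of small GTPases, had 653, 363 and 491, against 299, 197 and 556 with Th1, 414, 179.6 and 320.0 with M/M and 479, 151 and 401 in control cultures. With centred arrays and without experiment 3 they were called higher against Th1 only, by 1.91 (adjusted p = 0.0192, limma) and 1.05 (adjusted p = 0.0266), with adjusted p values of 0.319 and 0.496 as deposited. In experiment 3 the array labelled Th2 was the one at a low level for Apobec1, Vsir and Arl11, next to M/M.

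Of all 4736 named genes, each by its brightest probe set, 22 were called lower with Th2 than with Th1 and 13 lower than with M/M cytokines without experiment 3. Against Th1 these held 9 of the 28 measured inflammatory genes, 8 of the 16 interferon-inducible genes and 5 of the 16 antigen presentation genes, and against M/M cytokines 10 of the 28 inflammatory genes, and lists can share members. Of the 40 probe sets lower than with Th1 and the 21 lower than with M/M cytokines 11 were shared, which is 27.5% of the Th1 set and 52.4% of the M/M set. For the 40, the median log2 fold change against control in experiments 1 and 2 was −0.03 with Th2 and 3.52 with Th1 cytokines. For the 21 it was 0.12 with Th2 and 3.08 with M/M cytokines. Since these probe sets were taken for their difference between mixtures in the same experiments, these values are a description. Nfkbia, the inhibitor that NF-kB itself switches on, had 254, 148 and 468 with Th2 cytokines, 1129, 609 and 86.5 with Th1, 1104, 613 and 664 with M/M and 288, 158 and 90.4 in control cultures. Its log2 difference was −2.10 to Th1 (adjusted p = 0.00590) and −2.08 to M/M cytokines (adjusted p = 0.00733, limma). Ccl20, whose Th2 and control signals are given above, was −3.71 from Th1 and −5.02 from M/M cytokines, and Il1b, Icam1, Cx3cl1, Cxcl10 and Cyp7b1 were lower than with both as well. Irf1, a transcription factor induced by interferon-g, was called lower as deposited only against Th1 and had 256, 74.2 and 373 with Th2 cytokines, 2849.5, 1761 and 116 with Th1, 1188, 381 and 4575 with M/M and 325, 93.8 and 153 in control cultures (−4.02, adjusted p = 0.00815, limma), while its difference to M/M was −2.29 (adjusted p = 0.0709). With centred arrays Irf1 was called lower against M/M as well, at −2.24 (adjusted p = 0.00407, limma). Lcn2, for the acute phase protein lipocalin 2, was called lower only against M/M, at −2.57 (adjusted p = 0.0158, limma), with −0.36 to Th1.

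**Figure D5:**
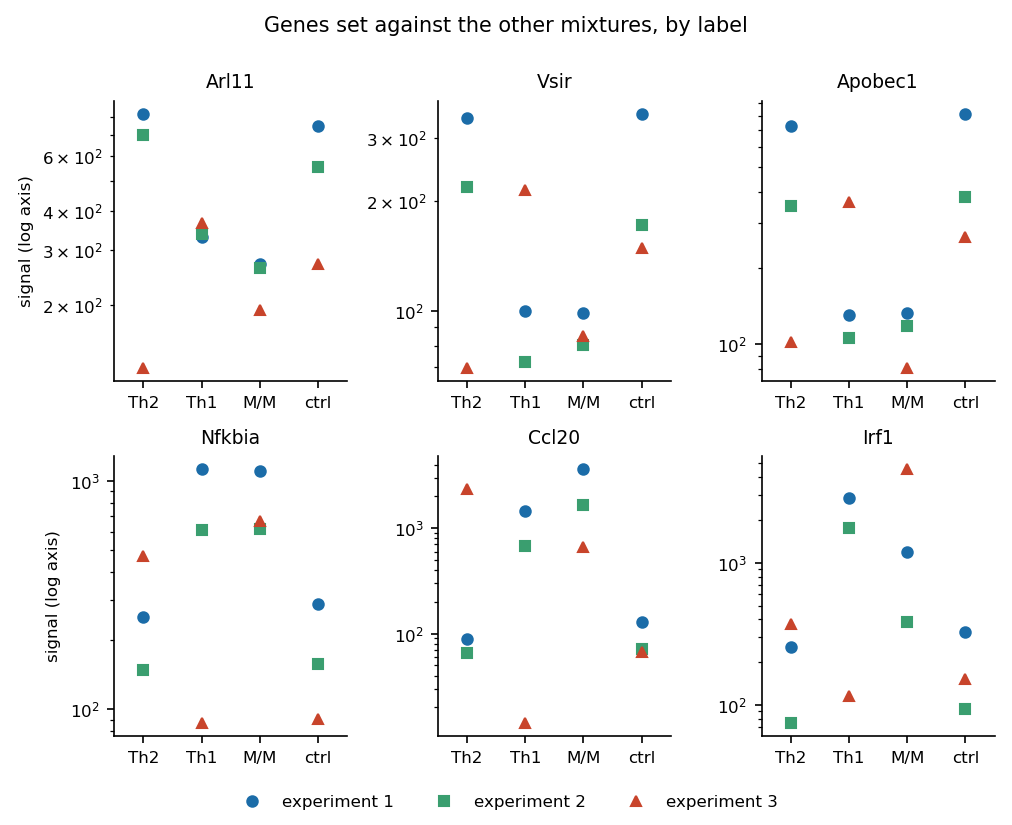
Signals of Arl11, Vsir, Apobec1, Nfkbia, Ccl20 and Irf1 on log axes in the 12 arrays, in the order Th2, Th1, M/M and control, with a marker for each experiment. In experiments 1 and 2 the Th2 signals of Nfkbia, 148 and 254, lie near the control signals, 158 and 288, and below those with Th1 and M/M, 609 to 1129, whereas in experiment 3 the Th2 signal is 468.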

How the data were processed

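RNA of 12 mixed glial cultures was hybridised to Affymetrix RG-U34A arrays, 1 array per culture. The authors calculated the deposited probe set signals with dChip and gave them as intensity values on a linear scale. Settings and normalization between arrays are not given in the sources used here, the array medians differ, and signals have 2 decimals in experiments 1 and 2 and 1 decimal in experiment 3. Columns were matched to groups by the sample titles, and the title code gave the experiment, here numbered 1 to 3.

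Signals below 0.1 were set to 0.1 and log2 transformed. limma 3.58.1 (R 4.3.3; tables with Python 3.11.15 and pandas 2.3.3) was fitted to all 12 arrays with group and experiment as terms (residual df 6) and a trend of the prior variance, with the Benjamini-Hochberg adjustment made over all 8740 probe sets and a threshold of 0.05. Experiment was used as the replicate block because the title codes name it, and arrays of the same experiment deviated together (18 pairs, r 0.44 to 0.71, against −0.62 to 0.36 in 36 pairs of different experiments). The p values set a difference between groups against its spread over these 3 experiments. For a probe set all 12 arrays share 1 estimate of the spread, which is drawn towards a prior taken from all probe sets. That spread includes the 3 cytokine arrays of experiment 3, whose signals went against their labels. The number of arrays limits the precision. The screening criteria used an unpaired analysis of variance at p under 0.2 and a mean log2 ratio over 1 in size.

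One gene symbol was found for 7006 probe sets, 308 had several and 1426 had none. Genes were named in the text by rule: 1 symbol, mean signal of at least 50, same direction in 3 of 3 experiments, and the 12 higher and 12 lower with the smallest unadjusted p, as deposited and with centred arrays. Other named genes are members of the gene lists, were called between mixtures, or were taken up after their values were seen. The comparison and the lists were chosen with earlier results of these data known. The fit was tested on simulated data. Alternatives were centring, quantile normalization, no or a random block, only 6 arrays, another floor or offset, leaving out dim probe sets, no trend, and leaving out arrays or experiments. Centring combined with other settings and all tests between mixtures without an experiment were added after seeing the data.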

Additional observations from a re-analysis of the deposited data

How the results depend on the processing

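The count of 1 probe set higher with Th2 cytokines was 1 with a random replicate block, with 16 added to every signal, with dim probe sets left out, and with centred arrays and a floor of 20. It was 0 with centred arrays, 0 with quantile normalization, 0 with no replicate block, 0 with a floor of 20 and 0 with no trend of the prior variance, and 13 when only the Th2 and control arrays were fitted. Without the block 85 probe sets were higher and 7 lower at an unadjusted p under 0.05 in limma, against 530 and 60 with it. Leaving out an experiment or an array gave 0 to 3 higher probe sets as deposited and 0 to 0 with centred arrays. Without experiment 2 Il6 was called next to M24067_at, and without the Th2 array of experiment 2 Ccl2 as well. The count of lower probe sets was 0 in every alternative run. By the screening criteria the 325 higher probe sets became 189 with quantile normalization, 588 with limma's unadjusted p and the replicate block, 70 with a floor of 20 and 155 to 469 without an experiment, the lowest without experiment 2. The 60 lower became 122 with centred arrays, 165, 118, 2 and 73 to 108 under the same settings, the highest without experiment 3. Between mixtures, leaving out an experiment gave 0 to 1 higher and 0 to 40 lower probe sets against Th1 (0 to 8 and 0 to 82 with centred arrays) and 0 to 2 higher and 0 to 21 lower against M/M cytokines (0 to 7 and 0 to 45), with calls only without experiment 3. The causes were not tested.

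Of 726 values of 33 named probe sets under the alternatives, 703 kept their direction and side of the threshold and 0 reversed. The 15 that lost a call were all of M24067_at, whose log2 fold change was 1.91 to 2.79, and 8 gained one, 7 of them when only 6 arrays were fitted. Of the medians of gene lists 157 moved by less than the spread between experiments and 42 moved by more. Signals near the bottom of the scale limit the dim genes: 2683 to 3765 probe sets were below 20 on the Th2 arrays and 2754 to 3861 on the control arrays.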
